A study of Mus musculus with 8 samples.

Results

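The genes described here are 40 genes of skeletal muscle fibres: the contractile proteins of fast and slow fibres, the calcium handling and energy enzymes of muscle, and the scaffold of the sarcomere. They were chosen by name as a list, with earlier results of these data known. They were divided into classes by the fibre type in which textbooks place each form. Of the 40 genes, 37 had a probe with their name on the array and 33 were detected, at a detection p under 0.05, on at least 1 array, out of 10461 genes detected on at least 1 array in all. Each gene was read on 1 probe, the one with the highest mean. Myh2, Cacna1s and Neb had no probe under their names. Casq1, Myh7, Trdn and Myom2 had probes that were detected on 0 of 8 arrays.

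The samples were 8 mouse melanomas, 1 Illumina bead array each. All came from FVB/n mice in which the Dct promoter drives TVA, a receptor for avian viruses, in melanocytes, and with floxed Ink4a/Arf. Newborn mice received subcutaneous injections of cells producing avian viruses for Tet-off and for TRE-NRASQ61R-IRES-Cre, so that oncogenic NRAS and Cre could be switched off by doxycycline food. The 7 resistant tumours (NRASQ61R Off) came after doxycycline was begun at a tumour volume of 1000 mm3, and the 1 control (NRASQ61R On) had no interruption of NRAS. The description of the control names NRAS-IRES-Cre without Tet-off, so its virus is not settled. Nothing in the labels says that the tumours came from separate mice, so the p-values below reflect the spread of these samples alone, which may be technical. The melanocyte genes Mitf, Tyr, Tyrp1, Dct and Mlana, which would mark the labelled tissue, were detected on 0 arrays, and Pmel was detected near the limit in tumours 4 and 6 (5.26 and 5.22). Each array detected between 11821 and 12851 of 25697 probes, and precision is set by how few arrays there are. Tumours 2 and 7 were the most alike of all pairs of arrays, with an SD of 0.46 for the log2 differences over 10461 genes and a range of -3.30 to 3.41, where the next pair, tumours 2 and 4, had 0.57. Whether they share a mouse is not given, and an n of 7 counts them as separate. Tumour 6 stood apart from every other array, with SDs of 1.05 to 1.17. Without tumour 2, 6 or 7, each left out in turn, 0 of the 33 genes passed the test.

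Muscle contracts when calcium, released from the sarcoplasmic reticulum through the ryanodine receptor, binds troponin C and frees actin for myosin. Fast and slow fibres use different genes for the same parts of this machine (myosin heavy and light chains, the 3 troponin subunits and myosin-binding protein C), and the heart shares several of the slow ones. Fast glycolytic fibres rely on creatine kinase and glycolysis and hold much parvalbumin, a calcium buffer, while slow and oxidative fibres hold myoglobin, which stores oxygen. Skin of the mouse trunk lies on a thin sheet of muscle, the panniculus carnosus.

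Muscle fibre genes were high in resistant tumour 1, lower in tumour 2, lower again in tumours 6 and 7, and low or undetected in the control and in tumours 3, 4 and 5. Levels are log2 intensities after background correction and quantile normalization, and the lowest detected signals of the arrays lay between 5.12 and 5.36 on that scale. All 33 measured genes had their highest level in tumour 1, against 11.6% of all genes tested. In 22 of the 33 tumour 2 came second as well, against 1.12% of all genes. Tumour 1 detected 33 of the 33 genes (84.9% of the 10461), tumour 2 detected 29 (81%), tumour 6 detected 23 (86.1%) and tumour 7 detected 20 (81.6%). The control detected 14 (84.2%), tumour 5 detected 11 (81.9%), tumour 4 detected 10 (82.9%) and tumour 3 detected 9 (83.1%). The share of all genes detected was thus alike on the 8 arrays. A gene entered the 33 by being detected somewhere, and for Tnni1 and Myot that was in tumour 1 alone, so these counts describe the genes and support nothing further. In bulk tissue, fewer muscle cells and less RNA per muscle cell cannot be told apart.

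**Figure D1:**
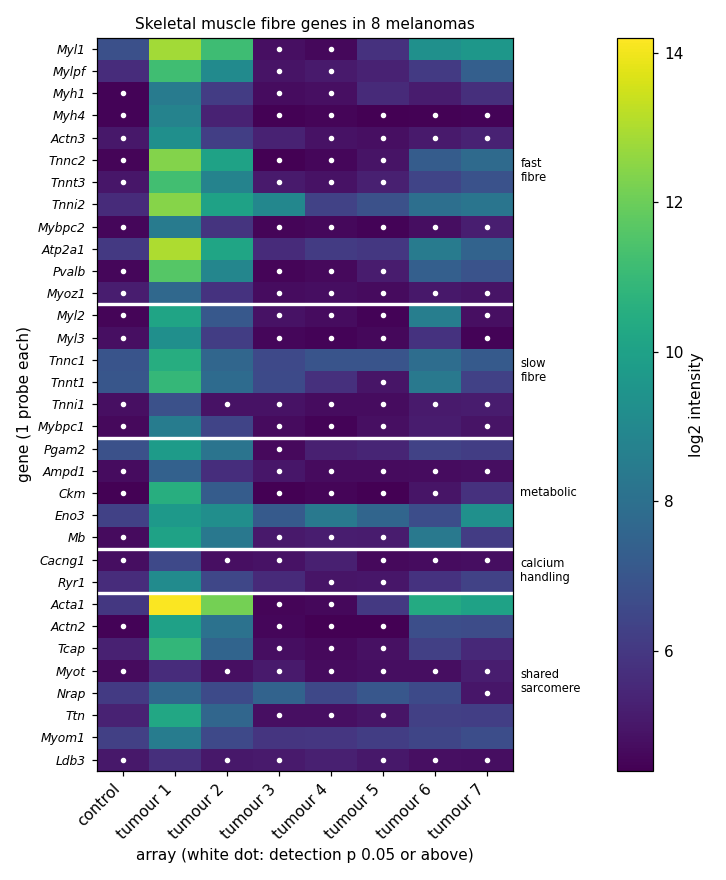
Log2 intensity (colour) of the 33 measured muscle fibre genes (rows, 1 probe each, by class) on the 8 arrays (columns); a white dot marks a detection p of 0.05 or above. Tumour 1 is the brightest column in every row, followed by tumour 2 in most, and tumours 3, 4 and 5 and the control are mostly dark.

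No muscle fibre gene passed the test of the 7 resistant tumours against the control. In limma fitted over all 10461 genes, 0 of the 33 passed an adjusted p of 0.05 as higher, where 0.00956% of all genes did, and 0 passed as lower, where 0.21% did. At an unadjusted p under 0.05, 0 of the 33 were higher or lower, where 2.86% of all genes were higher and 5.35% lower. The adjusted p-values ran from 0.684 for Eno3 to 0.988 for Tnnt1. The median fitted difference over the 33, resistant minus control, was 0.94, beside -0.02 over all genes, and 32 of 33 differences were positive. All 7 tumours lay above the control in 5 genes (Myh1, Tnni2, Eno3, Mb and Myot), against 13.3% of all genes, and below it in 0, against 17%. Of those 5, Myh1, Mb and Myot were not detected in the control or in several of the tumours, so for them the count rests on values without a detected signal. The spread between resistant tumours was wide: Acta1 ranked 2, Myl1 4 and Tnnc2 10 by SD among the 10461 genes, and 12 of the 33 were among the 100 genes with the highest SD. In 13 of the 33, 1 tumour stood apart from the other 6 (13.1% of all genes), and in 12 it was tumour 1, on the high side (2.19%). Of those 12, Tnni1 was detected in tumour 1 alone and Myh4, Mybpc2, Myoz1 and Ampd1 in tumours 1 and 2 alone, so the detection filter kept them through the tumours that stand apart, and nothing is read from the count. Without tumours 1 and 2 the differences of Myh4, Myoz1, Myl3, Tnnt1, Pgam2, Ryr1, Tcap and Ldb3 were below 0 and that of Myom1 was 0.

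Set against the control on its own, tumour 1 was at least 2-fold higher in 31 of the 33 genes (5.13% of all genes) and tumour 2 in 21 (6.14%). Tumour 6 had 12 such genes (11.6%) and tumour 7 had 13 (5.02%), while tumour 3 had 2 (7.7%), tumour 4 had 1 (6.68%) and tumour 5 had 3 (6.59%). At least 2-fold lower than the control were 3 genes of tumour 3 (9.31%), 4 of tumour 4 (8.68%), 2 of tumour 5 (9%), 1 of tumour 7 (6.51%) and 0 of tumours 1 (5.28%), 2 (8.1%) and 6 (13.2%). At 16-fold or more, tumour 1 exceeded the control in 37 genes of the array (0.354%), and 17 of these were muscle fibre genes. Tumour 2 did so in 17 genes (0.163%), 6 of them muscle fibre genes. These counts take the values as measured, undetected ones included. The genes were chosen with earlier results of these data known, so the counts describe them and support nothing further. Folds of single genes are given as at least N-fold where the control was not detected, against the lowest detected signal of its array or the gene's own signal, whichever was higher. Counted that way, over tumours with a detected signal, 31 genes were at least 2-fold higher in tumour 1 (4.74% of all genes), 17 for tumour 2 (5.55%), 11 for tumour 6 (10.8%) and 10 for tumour 7 (4.63%). At 16-fold the counts were 16 for tumour 1 (0.296%) and 5 for tumour 2 (0.143%). Folds of 1 array over 1 array have no replicate check.

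**Figure D2:**
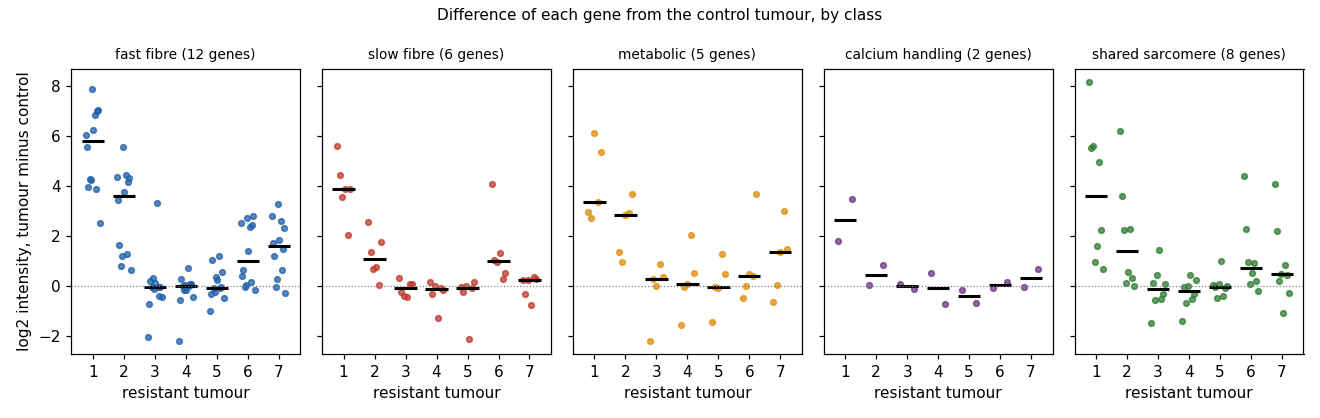
Log2 intensity of each gene in each resistant tumour minus its level in the control (points), with the median of the class (black line), for 12 fast, 6 slow, 5 metabolic, 2 calcium handling and 8 shared sarcomere genes. The fast class has medians of 5.80, 3.61, 1.02 and 1.60 in tumours 1, 2, 6 and 7, and lies near 0 in tumours 3, 4 and 5.

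Promoters are shown for 1 shared, 2 fast, 1 metabolic and 2 slow genes, as the 250 bases before the RefSeq start of each (GRCm38.p6, gene strand, 5′ to 3′). Whether they bear on the levels was not tested. Capitals mark E-boxes (CANNTG), the CArG box, the MCAT motif (CATTCC, or GGAATG on the other strand) and TATAAA. The windows are Acta1 at chr8:123894776-123895025 on the minus strand, Tnnc2 at chr2:164779735-164779984 on the minus strand and Myl1 at chr1:66945057-66945306 on the minus strand. They are followed by Ckm at chr7:19410844-19411093 on the plus strand, Myl3 at chr9:110763428-110763677 on the plus strand and Tnnt1 at chr7:4515976-4516225 on the minus strand.
Acta1: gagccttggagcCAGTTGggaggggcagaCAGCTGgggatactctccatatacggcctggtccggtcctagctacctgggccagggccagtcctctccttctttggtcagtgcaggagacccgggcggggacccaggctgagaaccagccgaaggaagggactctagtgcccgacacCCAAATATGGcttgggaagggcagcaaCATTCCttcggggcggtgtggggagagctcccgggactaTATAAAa
Tnnc2: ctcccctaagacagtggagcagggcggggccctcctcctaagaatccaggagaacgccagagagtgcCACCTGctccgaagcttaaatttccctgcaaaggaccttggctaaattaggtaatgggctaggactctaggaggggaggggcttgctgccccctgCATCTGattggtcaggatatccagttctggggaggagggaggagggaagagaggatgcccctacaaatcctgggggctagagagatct
Myl1: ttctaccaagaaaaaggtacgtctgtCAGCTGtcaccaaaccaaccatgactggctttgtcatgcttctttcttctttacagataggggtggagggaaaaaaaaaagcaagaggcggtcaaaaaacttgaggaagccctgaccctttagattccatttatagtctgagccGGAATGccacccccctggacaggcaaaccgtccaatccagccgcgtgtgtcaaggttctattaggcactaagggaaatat
Ckm: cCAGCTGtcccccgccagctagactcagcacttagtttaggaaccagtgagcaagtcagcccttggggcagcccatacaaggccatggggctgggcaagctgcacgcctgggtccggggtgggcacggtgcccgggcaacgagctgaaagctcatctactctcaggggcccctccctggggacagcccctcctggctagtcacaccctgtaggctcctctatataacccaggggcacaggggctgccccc
Myl3: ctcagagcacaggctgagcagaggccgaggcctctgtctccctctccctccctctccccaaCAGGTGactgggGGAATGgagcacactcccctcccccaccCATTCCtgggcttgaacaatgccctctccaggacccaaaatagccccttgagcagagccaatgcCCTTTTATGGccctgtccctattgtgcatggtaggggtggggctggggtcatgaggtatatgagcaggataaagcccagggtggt
Tnnt1: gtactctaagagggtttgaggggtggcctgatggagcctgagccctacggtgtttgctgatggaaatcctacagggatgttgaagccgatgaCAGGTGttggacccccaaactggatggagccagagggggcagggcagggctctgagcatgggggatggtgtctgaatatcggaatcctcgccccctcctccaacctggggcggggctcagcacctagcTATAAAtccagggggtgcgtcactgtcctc

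E-boxes are bound by the MyoD family, CArG boxes by serum response factor, MEF2 motifs by MEF2 proteins and MCAT motifs by TEAD proteins, all of them regulators of muscle genes. The Acta1 window held 2 E-boxes, 1 CArG box and 1 MCAT motif, and the Myl3 window 1 E-box, 1 CArG box and 2 MCAT motifs. The Tnnc2 window held 2 E-boxes, the Ckm window 1, and the Myl1 window 1 E-box and 1 MCAT motif. Tnnt1 had 1 E-box and a TATAAA that began at -30 from the start, and Acta1 a TATAAA at -7. Promoters were at hand for 29 of the 40 genes, 36 windows in all, since some genes have several starts. An E-box stood in 83.3% of the 36 and in 66.2% of the 32851 windows of all genes, on either strand. Its form CAGCTG, counted within the E-boxes too, stood in 44.4% and 13% respectively. The MCAT motif stood in 27.8% and 12.6%, MEF2 in 13.9% and 2.92%, CArG in 16.7% and 1.47%, and TATAAA, on the gene strand, in 11.1% and 7.59%. By class, CArG boxes stood in 4 of 7 windows of shared sarcomere genes, 1 of 11 of fast genes and 1 of 10 of slow genes. A MEF2 motif stood in 3 of 11 fast and 0 of 10 slow windows. These are matches of letters and not binding sites.

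Among the fast genes, the thin filament regulators gave some of the widest ranges. Tnnc2, the calcium sensor troponin C of fast fibres, read 12.39, 10.06, 7.80 and 7.25 in tumours 1, 2, 7 and 6. It was not detected in the control (4.52) or in tumours 3, 4 and 5 (4.42, 4.56 and 4.90). Tumours 1, 2, 7 and 6 were at least 140-fold, 27.8-fold, 5.82-fold and 3.99-fold above the control, and none of them overlapped the other 4 arrays. Over the group the difference was 2.82 (SE 2.75, limma adjusted p = 0.843), with a resistant mean of 7.34 ± 3.04 (SD, n = 7), a spread wider than the difference itself. Tnnt3, the tropomyosin-binding troponin T of fast fibres, followed the same order, with 11.23, 8.77, 6.86 and 6.40 in tumours 1, 2, 7 and 6. It was at least 62.9-fold above the control in tumour 1 and was not detected in the control or in tumours 3, 4 and 5.

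Tnni2, the inhibitory troponin of fast fibres, was also detected in the control and in tumours 3, 4 and 5. Tumours 1 to 7 read 12.42, 10.04, 8.94, 6.33, 6.83, 7.99 and 8.20, and the control 5.61, detected on all 8 arrays. Only tumours 1 and 2 exceeded tumour 3 for Tnni2, while its partners Tnnc2 and Tnnt3 were not detected there. The difference over the group was 3.07 (SE 1.88, limma adjusted p = 0.722), the largest of the 33.

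The myosin light chains of fast fibres had the same order of tumours but were also read in the control. Myl1, the essential light chain, read 12.84, 11.16, 9.60 and 9.31 in tumours 1, 2, 7 and 6, against 6.80 in the control and 5.81 in tumour 5, and was not detected in tumours 3 and 4. Tumour 1 was 65.9-fold and tumour 2 20.5-fold above the control. Mylpf, the regulatory light chain, read 11.19, 9.08, 7.35 and 6.05 in tumours 1, 2, 7 and 6, and 5.63 in the control. With tumours 3 to 5 at or below the control, the group differences were 1.50 (SE 2.95, limma adjusted p = 0.929) for Myl1 and 1.37 (SE 2.15, adjusted p = 0.914) for Mylpf.

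Of the fast myosin heavy chains, Myh4, the motor of the fastest fibres (IIb), was detected in tumour 1 (8.79) and at the edge of detection in tumour 2 (5.32). It was not detected on the other 6 arrays. Myh1, the heavy chain of IIx fibres, read 8.46 in tumour 1 and 6.15 in tumour 2, and between 5.15 and 5.72 in tumours 5, 6 and 7, near the detection limit. Near-identical sequence among heavy chain genes could let a probe read a relative, which was not tested, so both values are uncertain. Mybpc2, the fast myosin-binding protein C, read 8.46 and 5.86 in tumours 1 and 2 and was detected nowhere else. Actn3, the Z-disc actinin of fast fibres, read 9.28 and 6.23 in tumours 1 and 2 and 5.35 in tumour 3. Myoz1, a calcineurin-binding Z-disc protein of fast fibres, read 7.70 and 5.83 in tumours 1 and 2 and was not detected elsewhere.

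The calcium pump and buffer of fast fibres were among the genes that still stood out in tumours 6 and 7. Atp2a1, the pump SERCA1 that returns calcium to the sarcoplasmic reticulum, read 13.01, 10.17, 8.46 and 7.51 in tumours 1, 2, 6 and 7, with the control at 6.02 and tumours 3, 4 and 5 at 5.62 to 6.10. The 4 high tumours were 127-fold, 17.7-fold, 5.41-fold and 2.80-fold above the control. Pvalb read 11.61, 8.90, 7.36 and 6.89 in tumours 1, 2, 6 and 7 and was not detected in the other 4. For both, tumour 6 exceeded tumour 7, as in 3 of the 12 fast genes, the other of which, Myoz1, was detected in neither.

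Slow fibre genes had tumour 1 on top too, but tumour 6 ranked above tumour 2 for several of them. Myl2, the regulatory light chain of slow fibres and heart ventricle, read 10.12, 8.60 and 7.10 in tumours 1, 6 and 2, and went undetected in tumour 7 (4.79), the control (4.54) and tumours 3, 4 and 5. The fold over the control was at least 10.1 for tumour 6 and at least 3.58 for tumour 2. Tnnt1, slow troponin T, read 10.92, 8.36 and 7.82 in tumours 1, 6 and 2, then 7.04 in the control, 6.61 in tumour 3, 6.29 in tumour 7, 5.76 in tumour 4 and an undetected 4.94 in tumour 5. Its group difference was 0.20 (SE 1.82, limma adjusted p = 0.988). Tnnc1, the troponin C of slow fibres and heart, was detected on all 8 arrays, at 10.50, 7.92, 7.64 and 7.17 in tumours 1, 6, 2 and 7. It lay between 6.55 and 6.94 in the control and tumours 3, 4 and 5.

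Myl3, the essential light chain of slow fibres and ventricle, read 9.27 in tumour 1, 6.18 in tumour 2 and 5.85 in tumour 6, and was detected nowhere else. Mybpc1, the slow myosin-binding protein C, read 8.52, 6.40 and 5.14 in the same 3 tumours. Tnni1, slow troponin I, was detected in tumour 1 alone, at 6.84. The slow heavy chain Myh7, which would be the motor of these fibres, was not detected on its probe in any tumour, tumour 1 included (4.84).

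Fast and slow genes can be set against each other within a gene, tumour by tumour, since levels of different probes cannot be compared. From tumour 1 to tumour 2 the 12 fast genes had a median difference of -2.42 and the 6 slow genes -2.94, with 0 of 18 higher in tumour 2, where 50.1% of all genes were. Between tumours 6 and 7 the classes parted: the slow genes had a median of 1.04 (tumour 6 minus tumour 7), with 5 of 6 higher in tumour 6, and the fast genes -0.27, with 3 of 12 higher. Over all genes the median was -0.08 and 44.8% were higher in tumour 6. The difference was 3.81 for Myl2, against an undetected value in tumour 7, 2.06 for Tnnt1 and -1.30 for Mylpf. These tumours were singled out after their values were seen, each is 1 array, and no test was made. Only 2 of the 6 slow genes and 8 of the 12 fast genes were detected in both.

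**Figure D3:**
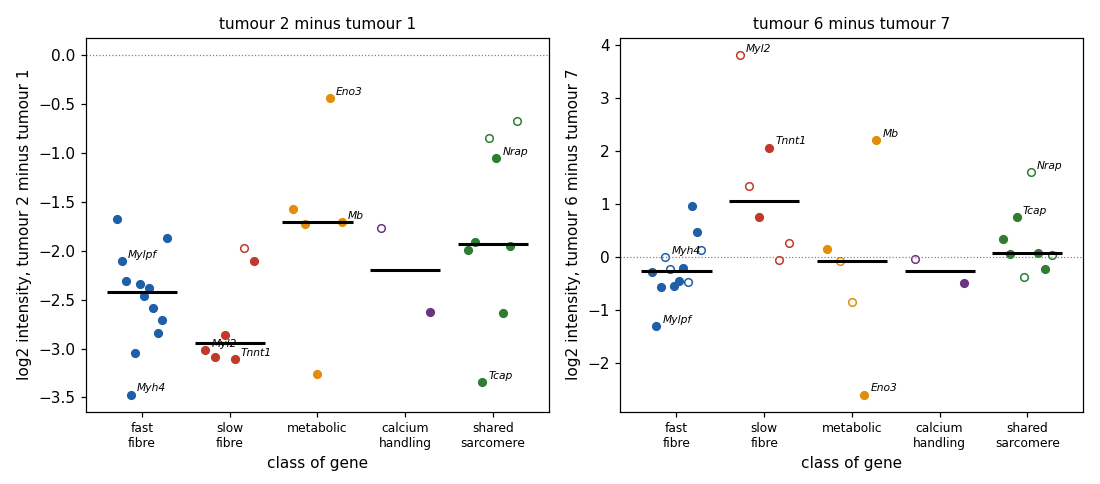
Difference in log2 intensity for each gene (points) between tumours 2 and 1 (left) and tumours 6 and 7 (right), by class, with the class median (black line); open circles were not detected in 1 or both tumours. On the left every gene lies below 0, and on the right the slow median is 1.04 and the fast median -0.27.

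Pairs of fast and slow forms of 1 protein show where tumour 6 departs. For troponin C, tumour 6 minus tumour 1 was -2.58 log2 units for the slow form Tnnc1 and -5.14 for the fast form Tnnc2. For troponin T it was -2.57 for slow Tnnt1 and -4.83 for fast Tnnt3. For the regulatory light chain it was -1.52 for slow Myl2 and -5.14 for fast Mylpf. In these 3 pairs the slow form was nearer to its level in tumour 1, while the essential light chains lay close together, at -3.42 for Myl3 and -3.53 for Myl1. In tumour 2 the slow form was the farther from tumour 1 in these 4 pairs, with -2.86 for Tnnc1, -3.11 for Tnnt1, -3.02 for Myl2 and -3.09 for Myl3. The fast forms there differed by -2.34 for Tnnc2, -2.46 for Tnnt3, -2.11 for Mylpf and -1.68 for Myl1. The other pairs went the opposite way in tumour 2, with -1.97 for slow Tnni1, undetected there, against -2.38 for fast Tnni2, and -2.11 for slow Mybpc1 against -2.59 for fast Mybpc2. Tnnc1 and Tnnt1 were also detected in the control (6.94 and 7.04), where Tnnc2, Tnnt3 and Myl2 were not. Tumour 6 minus the control was 0.98 for Tnnc1 and 2.73 for Tnnc2, and 1.32 for Tnnt1 and 1.40 for Tnnt3. It was 4.06 for Myl2 and 0.42 for Mylpf, so of these 3 pairs this one alone had the slow form ahead against the control. Tnnc1 was also detected in tumours 3, 4 and 5 and Tnnt1 in tumours 3 and 4. The part of these levels in the contrast was not tested. Myl2 was undetected in tumours 3, 4 and 5.

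**Figure D4:**
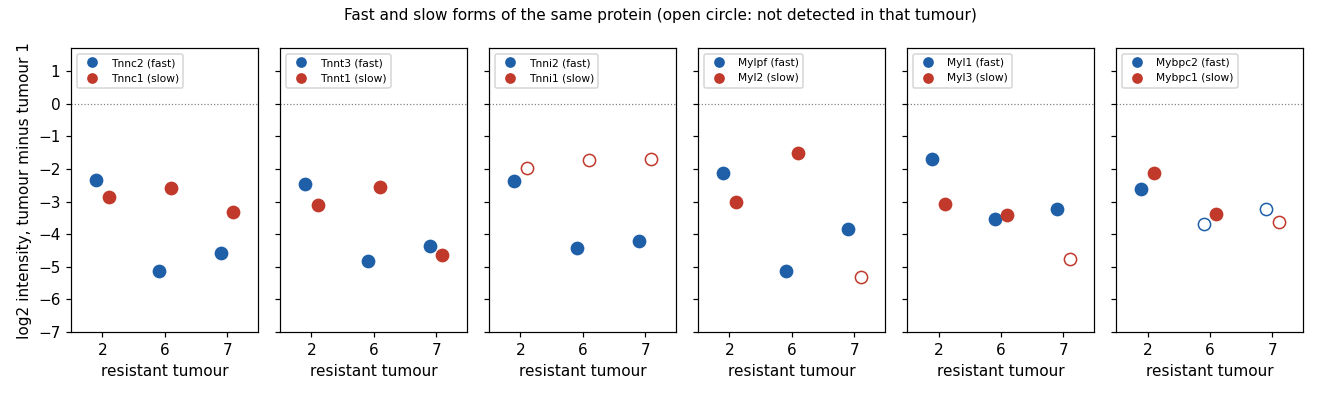
Log2 intensity in tumours 2, 6 and 7 minus that in tumour 1 for 6 pairs of fast and slow forms of a protein, named with their colours in each panel; open circles were not detected in that tumour. In tumour 6 the slow forms Tnnc1, Tnnt1 and Myl2 lie above their fast partners, and in tumour 2 they lie below them.

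Among the metabolic genes, Mb and Ckm differed between tumours 6 and 7 in opposite directions. Mb, myoglobin, read 10.05, 8.37, 8.34 and 6.15 in tumours 1, 6, 2 and 7, and on the remaining arrays it was undetected, so that tumours 6 and 2 were 0.03 apart. Its other detected probe read 7.78, 6.08 and 5.59 in tumours 1, 2 and 6. Ckm, muscle creatine kinase, read 10.53 in tumour 1 and 7.27 in tumour 2, 5.80 in tumour 7, and was not detected in tumour 6 (4.94) or elsewhere. The fold over the control was at least 38.6 for tumour 1 and at least 4.02 for tumour 2. Ampd1, the muscle AMP deaminase, was detected in tumours 1 and 2 alone, at 7.43 and 5.70.

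Eno3 and Pgam2, the muscle forms of 2 glycolytic enzymes, differed in pattern from the other fibre genes outside tumours 1 and 2. Eno3, beta-enolase, was detected in all 8 tumours, at 9.67, 9.31 and 9.23 in tumours 1, 7 and 2, 8.36, 7.58 and 7.18 in tumours 4, 5 and 3, and 6.71 in tumour 6 against 6.31 in the control. Its group difference of 1.98 (SE 1.07) had the smallest adjusted p of the 33 and did not pass (limma adjusted p = 0.684). Tumour 6 had the least Eno3 of the resistant tumours. Pgam2, the muscle phosphoglycerate mutase, read 9.76 in tumour 1, 8.18 in tumour 2 and 6.82 in the control. The control was above the other resistant tumours (4.64 to 6.34). Unlike Eno3, Pgam2 differed little between tumours 6 and 7, at 6.34 and 6.19. It was the 1 gene of the 33 whose group difference was below 0 (-0.28, SE 1.65, limma adjusted p = 0.979).

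Of the calcium release apparatus, Ryr1, the ryanodine receptor of the reticulum, read 9.11, 6.48, 6.33 and 5.83 in tumours 1, 2, 7 and 6, with 5.65 in the control. Its 2 other detected probes read 9.34 and 8.39 in tumour 1 and 6.99 and 6.61 in tumour 2. Cacng1, the gamma subunit of the muscle calcium channel, read 6.58 in tumour 1 and a marginal 5.28 in tumour 4, and was not detected elsewhere.

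Among genes of the sarcomere shared by both fibre types, Acta1, Actn2, Ttn and Tcap had the order tumour 1, 2, 6 and 7. Acta1, the actin of the thin filament, had the widest range: 14.15, 12.17, 10.39 and 10.05 in those tumours, 6.03 in tumour 5, 5.99 in the control, and no detection in tumours 3 and 4. This was 286-fold, 72.1-fold, 21.0-fold and 16.7-fold above the control, with a group difference of 2.85 (SE 3.46, limma adjusted p = 0.882). Actn2, alpha-actinin of the Z-disc, read 9.99, 8.08, 6.75 and 6.69 and was not detected in the other 4. Ttn, the titin spring that spans the sarcomere, read 10.28, 7.63, 6.26 and 6.20, against 5.34 in the control. Tcap, the cap of titin at the Z-disc, read 10.90, 7.56, 6.26 and 5.52, against 5.31 in the control.

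The remaining scaffold genes had narrower ranges. Myom1, a cross-linker of the M-band, read 8.50 in tumour 1 and between 5.93 and 6.70 in the other 7 tumours, all detected. Nrap, an anchor of actin at the myotendinous junction, read 7.67 in tumour 1 and 7.51 in tumour 3 on the probe used, and was not detected in tumour 7. Another Nrap probe read 8.77, 6.96, 6.45 and 6.03 in tumours 1, 2, 6 and 7 and was not detected in the control or tumours 3, 4 and 5, so the 2 probes disagree on tumour 3. Myot, a Z-disc protein, was detected in tumour 1 alone (5.65), and Ldb3, also of the Z-disc, in tumours 1 and 4 near the limit (5.72 and 5.26). Of 9 genes with more than 1 detected probe, 8 had tumour 1 highest on every one, and the exception was Ldb3. Further probes of Actn3, Ampd1 and Myl1 were detected in tumour 1 alone, so the detection filter favours this count and nothing is read from it.

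Other genes of muscle, in lists drawn up beside the 40, were in part highest in the same tumour, and 0 of them passed limma's test at an adjusted p of 0.05, with 1 higher at an unadjusted p under 0.05. Of 34 further skeletal muscle genes, 26 had a probe and 20 were detected, and 13 of the 20 were highest in tumour 1 (11.6% of all genes). Art1, Jsrp1 and Trim63 were detected in tumour 1 alone, so the detection filter favours this count. Csrp3, a mechanosensor of the Z-disc, read 9.70, 8.07, 6.95 and 7.29 in tumours 1, 2, 6 and 7 and was not detected in the other 4. Des, the muscle intermediate filament desmin, read 10.84 in tumour 1, 8.79 in tumour 2 and 7.39 in the control. The other tumours were below the control for Des, with 6.92 in tumour 6 and 7.02 in tumour 7. Tpm2, beta-tropomyosin, divided by probe: that with the higher mean read 10.42 in tumour 1 and 11.33 in the control, and another 11.09 in tumour 1, 8.54 in tumour 2, 7.18 in tumour 6 and an undetected 4.89 in the control. Of 13 further metabolic genes 12 were measured. Cox8b, a muscle and brown fat subunit of cytochrome oxidase, read 10.62, 7.01, 6.38 and 6.11 in tumours 1, 2, 3 and 6, and was undetected in the rest. Cox6a2, another subunit, read 11.01 in tumour 1 against 7.06 in the control.

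Regulators that build new muscle were detected in part. Of 10 myogenic regulators 7 had a probe, and those for Pax7, Myf5, Myod1 and Mymk were detected on 0 arrays. Mef2c, which other tissues express too, was detected on all 8 arrays, at 7.21 to 7.98 on the probe used. Another Mef2c probe read 6.99 in tumour 1, 6.01 in tumour 2, 5.32 in the control and 5.19 in tumour 6, and was not detected elsewhere. A further Mef2c probe was detected on all 8 arrays, at 5.35 to 6.34 and highest in the control, so the probes disagree. Myf6, the regulator kept in adult fibres, was detected in tumour 1 alone, at 7.25. Myog read between 4.84 and 6.02, close to the limit, and its 2 detected probes put tumour 1 at opposite ends. Of embryonic and neonatal genes, Myh8, the perinatal heavy chain, read 8.19 in tumour 1 and 5.59 in the control and no signal elsewhere on that probe, and Chrng, the fetal subunit of the acetylcholine receptor, was detected in tumour 1 alone (6.21). Chrna1, its alpha subunit, did not follow the fibre genes. It read 11.94 in the control, 10.67 to 10.95 in tumours 1, 2, 3 and 7, 8.03 in tumour 4, 7.68 in tumour 5 and 5.84 in tumour 6. Of 8 cardiac genes, Tnni3, Mybpc3, Ryr2, Myl7, Pln and Nppa were not detected and Myh6 was marginal in tumour 1 (5.30). Nppb, a natriuretic peptide, was detected on 7 arrays, at 13.33 in the control, 11.50 in tumour 1 and 8.89 to 10.70 in tumours 2, 3, 4, 5 and 7, and not in tumour 6 (5.02).

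Some markers of other tissues were high in the same tumours. Of 9 adipocyte genes 5 were measured, and their summed linear level was 1293 in tumour 1, 398.5 in tumour 3 and between 127.5 and 200.1 on the other 6 arrays. Ucp1, the uncoupling protein of brown fat, and Cidea and Cidec, proteins of lipid droplets, were detected in tumour 1 alone (7.15, 8.90 and 6.19). Adipoq, adiponectin, read 9.12 in tumour 1 and 7.96 in tumour 3 and was not detected in tumour 2, and the defining markers Fabp4 and Plin1 were detected on 0 arrays. The 6 measured smooth muscle genes summed to 19980 in tumour 2 and 19710 in tumour 7, and to between 1776 and 6721 elsewhere. This came through Acta2, the actin of smooth muscle and myofibroblasts, at 14.21 and 14.14. The list did not follow it: the median difference from the control over the 6 genes was -0.23 in tumour 2 and 0.07 in tumour 7. Hba-a1, a globin of red cells, read 7.07 in tumour 6 and 12.48 to 14.50 on the other arrays. Of 6 keratinocyte genes with a probe, Krt10 was detected, at 8.03 in tumour 1 and 8.62 to 9.62 elsewhere, and Krt14 and Krt5 were not. The part of these tissues in the muscle values was not tested.

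**Figure D5:**
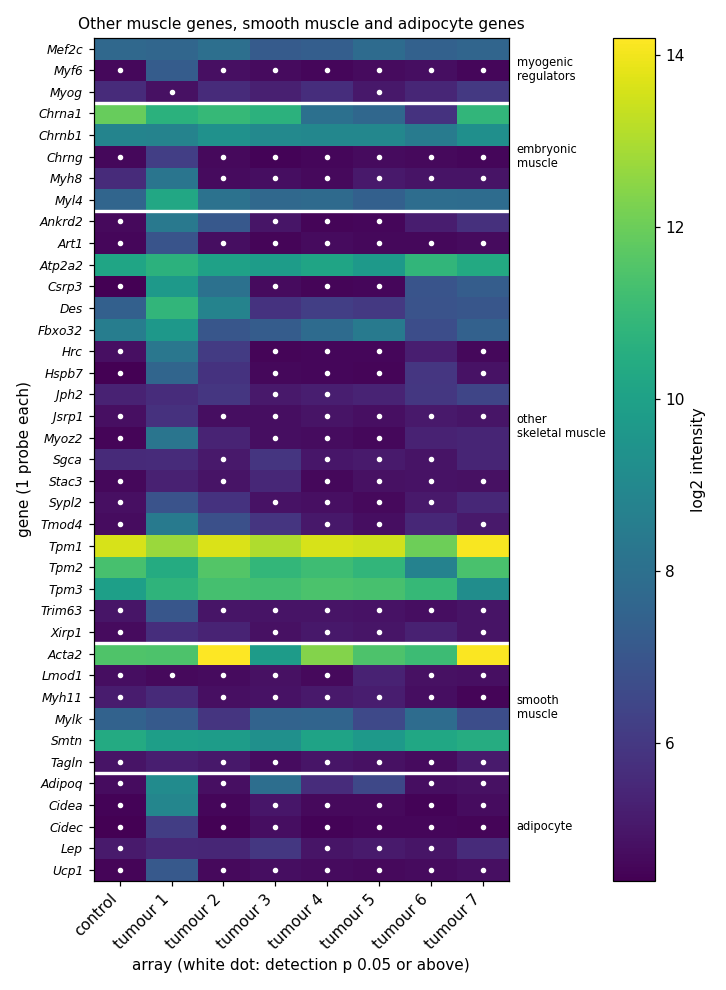
Log2 intensity (colour) of the measured myogenic, embryonic and other muscle genes and of smooth muscle and adipocyte genes (rows, 1 probe each) on the 8 arrays (columns); a white dot marks a detection p of 0.05 or above. Myf6, Chrng, Ucp1, Cidea and Cidec are detected in tumour 1 alone, and Acta2 is brightest in tumours 2 and 7.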

How the data were processed

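Biotin-labelled RNA of 8 mouse melanomas was read on Illumina bead arrays, per the labels' protocols. The authors deposited probe intensity on a linear scale, not normalized per the file headers, with a detection p-value per probe and array, and a normalized intensity table. GenomeStudio is named in the submitters' processing notes. The non-normalized intensity has array medians of 86.3 to 94.8. The deposited normalized intensity has medians of 90.4 to 90.7 and ranks probes alike (Spearman at least 0.999998). Its method, not given in the sources used here, is unknown, and it served as an alternative.

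Background was corrected with limma's neqc, using the detection p-values deposited, with an offset of 16, followed by quantile normalization and log2. Of 25697 probes 23978 had 1 gene symbol, 0 several and 1719 none, and 23962 were updated by gene ID through RefSeq (GRCm38.p6), which also gave the promoters. Kept were probes detected (p under 0.05) on 1 array or more, and the probe with the highest mean stood for its gene (10461 genes). Resistant tumours (7) and control (1) were contrasted in limma (lmFit, eBayes), two-sided, with Benjamini-Hochberg adjustment over all genes. The spread, on 6 residual degrees of freedom, is that of the resistant tumours. All 40 genes are named by rule, and context lists by up to 4 members each with some named beside them after their values were seen. Genes, classes and lists were chosen with earlier results of these data known. Alternatives covered background, normalization, the deposited values, the detection filter, the probe rule, the variance model and left-out tumours. On 20 simulated sets of 10461 genes, 7 against 1, the test found 7.91% of changes of 2-fold, 53.7% at 4-fold and 85.2% at 16-fold, and 5.2% of its calls were false. The changes were placed on genes drawn from all 10461, whose median SD over the resistant tumours was 0.35. That of the 33 muscle fibre genes was 1.75, so these rates do not carry over to them. No chip or array position is given, so no batch could be tested. R 4.3.3 and limma 3.58.1 were used.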

Additional observations from a re-analysis of the deposited data

Results flagged for a closer look

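In 13 of the 33 genes, 1 resistant tumour stood apart from the other 6 by Dixon's ratio of the gap to the range at the 95% level, against 13.1% of all genes. The 1 in 20 of that level is for normal values and is not the rate on these arrays, as the share of all genes shows. Tumour 1 was the high one in 12 of them, against 2.19% of all genes: Myh1 at 8.46, Myh4 at 8.79, Actn3 at 9.28, Mybpc2 at 8.46, Myoz1 at 7.70, Myl3 at 9.27, Tnnc1 at 10.50, Tnni1 at 6.84, Ampd1 at 7.43, Cacng1 at 6.58, Ryr1 at 9.11 and Myom1 at 8.50. Tnni1 was detected in tumour 1 alone, and Myh4, Mybpc2, Myoz1 and Ampd1 in tumours 1 and 2 alone, so the filter on detection favours this pattern. In Nrap, tumour 7 was the low one, at 5.01 and not detected on the probe used. Acta1, Myl1, Tnnc2 and Atp2a1 are not among the 13, since tumour 2, and in part tumours 6 and 7, lay between tumour 1 and the rest.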

How the results depend on the processing

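In all alternatives run, 0 of the 33 genes passed the test, and the lowest adjusted p among them was 0.439 (without tumour 6). Tumour 1 was the highest of 8 for all 33 in 6 alternatives that keep every tumour, and for 34 of 37 with no detection filter. Among the 6, trend and robust variance changes no level, so its ranking could not differ. The spread between tumours was taken as the SD, over the 7, of a class's median difference from the control. It was 2.23 for fast, 1.43 for slow, 1.39 for metabolic, 1.01 for calcium handling and 1.34 for shared genes. Except for metabolic genes it exceeded the main median, so a fall to 0 would stay within it. The class medians stayed within that spread, and no stability is read from this. Over left-out tumours they ranged from 0.80 to 1.91 for fast, 0.24 to 0.96 for slow, 0.78 to 1.81 for metabolic, 0.06 to 0.56 for calcium handling and 0.37 to 1.02 for shared genes, lowest without tumour 1 in each. The main medians were 1.44, 0.77, 1.54, 0.43 and 0.84. Without tumour 1 alone, the differences of Myoz1, Tnnt1 and Ldb3 changed sign (ranges over left-out tumours -0.18 to 0.32, -0.41 to 0.59 and -0.02 to 0.13). That of Pgam2 ranged from -0.81 to 0.04, highest without tumour 3, and was 0.03 with the deposited normalized values. Without tumours 1 and 2, chosen after seeing the data, the differences were -0.04 for Myh4, -0.35 for Myoz1, -0.01 for Myl3, -0.65 for Tnnt1, -1.25 for Pgam2, -0.12 for Ryr1, -0.10 for Tcap, -0.03 for Ldb3 and 0 for Myom1, and the calcium handling median was -0.02. Of 495 recomputed differences of single genes, 13 changed sign and 482 did not, and 0 passed. Differences under trend and robust variance could not change sign. The median over slow genes of tumour 6 minus tumour 7 lay between 0.61 and 1.04 and that over fast genes between -0.35 and -0.19. Over all genes, the count that was lower was 22, or 8 without background correction, 9 with the deposited values and 35 with no detection filter, and the count that was higher was 1, or 4 with no filter and 3 with trend and robust variance. Over left-out tumours these counts ranged from 5 (without tumour 2) to 50 (without tumour 1) and from 1 to 8 (without tumour 1). The cause was not tested. Median scaling moved the median difference of all genes to -0.20. No paired analysis was possible, since there was 1 control for 7 resistant tumours and no label links any of them to it. Signals near background limit the low genes, whose differences are compressed.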
